A study of Homo sapiens with 6 samples.

Results

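The interleukin-6 (IL-6) family was examined through 10 genes, taken by name from the series' FPKM table of 58174 genes: the ligands IL6, LIF and IL11, the receptor subunits IL6R, IL6ST, LIFR and OSMR, the kinase JAK1, the transcription factor STAT3 and the inhibitor SOCS3. All 10 were found, each as 1 entry. The series compares 3 samples of cells labelled Huh-7, a line from a human hepatocellular carcinoma, transfected with miR-27a-3p mimics (synthetic RNAs that act as the mature microRNA) with 3 samples transfected with a negative control labelled NC. RNA was taken 48 h after transfection in both groups, and no other treatment is named. Whether replicates were grown as separate cultures is not in the labels, so each p-value reflects only the spread among these samples, which may be technical.

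Cytokines of this family signal through the shared receptor subunit gp130, the product of IL6ST. IL-6 and IL-11 first bind their own alpha receptors, LIF pairs gp130 with the LIF receptor, and oncostatin M pairs it with OSMR or with the LIF receptor. Receptor-bound JAK kinases then activate STAT3, which in hepatocytes drives acute-phase genes and also induces SOCS3, an inhibitor that binds gp130 and the JAK kinases and limits the signal.

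FPKM divide a gene's fragments by its length and by the sum over the library, so a level is relative to that sum. A pile-up of FPKM times gene length at a shared value implies roughly 17.1 to 21.3 M fragments in each control library and 25.3 to 31.3 M in each mimic library. These depths are uncertain, as only 11.5% to 15.7% of low values were whole multiples of that value. Genes at 1 FPKM or more numbered 15109 to 15494 in controls and 13007 to 13250 with the mimic. Mitochondrial genes took 16.9% to 32.8% of summed FPKM in controls and 14.6% to 38.9% with the mimic, the most in sample 3 of each group. The labelled cell type was checked against 10 hepatocyte markers, of which 9 were under 1 FPKM in every sample. Albumin and alpha-fetoprotein, which Huh-7 cells are known for, were listed at no more than 0.0110 (ALB) and 0.0237 FPKM (AFP). The 10 markers summed to between 1.12 and 2.11 FPKM in controls and between 0.933 and 1.32 in mimic samples. These sums hold low values that moved in opposite directions without overlap, named after they were seen. HNF4A averaged 0.21 FPKM in controls and 0.86 with the mimic, while SERPINA1 went from 0.98 to 0.15 and TF from 0.24 to 0.021. These libraries therefore lack the defining transcripts of the labelled line, and the cells are called here by their label only. Of 8 leukocyte markers 7 were below the filter, with PTPRC at no more than 0.0184 FPKM, and the list summed to 8.85 to 10.7 FPKM in controls and 11.3 to 19.4 with the mimic. Of 9 stromal and endothelial markers 8 were below it, and the list summed to 19.1 to 21.2 FPKM in controls and 8.35 to 10.9 with the mimic.

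Differences were tested with limma on log2(FPKM + 0.5) over the 14439 genes that averaged 1 FPKM or more, and p-values were adjusted by Benjamini-Hochberg over all of them. A gene is called lower or higher where adjusted p was under 0.05. A log2 fold change is mimic against control with its standard error (SE). The median over all tested genes was -0.29 as deposited and became 0.01 under median-of-ratios scaling, so each change is also given after that scaling. In bulk RNA, fewer expressing cells and less RNA per cell cannot be told apart.

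Both tested ligands, LIFR and the feedback inhibitor SOCS3 were lower with the mimic on both scales. Of the 9 members tested, 5 were called lower (IL6, LIF, LIFR, OSMR and SOCS3) and none higher by limma, while 39.6% of all tested genes were called lower and 12.0% higher. At an unadjusted p under 0.05, 6 members were lower and 0 higher. The share of all tested genes at that threshold was not taken, and it cannot be under the 39.6% and 12.0% called. The 6 and 0 are therefore not read against a background. Median-of-ratios scaling left 4 lower (IL6, LIF, LIFR and SOCS3) and 1 higher (STAT3), against 27.4% and 26.9% of all tested genes. Mimic samples lay wholly below the controls in 6 of the 9 and wholly above in 0, against 44.3% and 16.2% of all tested genes. The members' median log2 fold change was -0.48, and -0.16 after scaling. IL11 had a mean under 1 FPKM and was not among the genes tested.

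**Figure D1:**
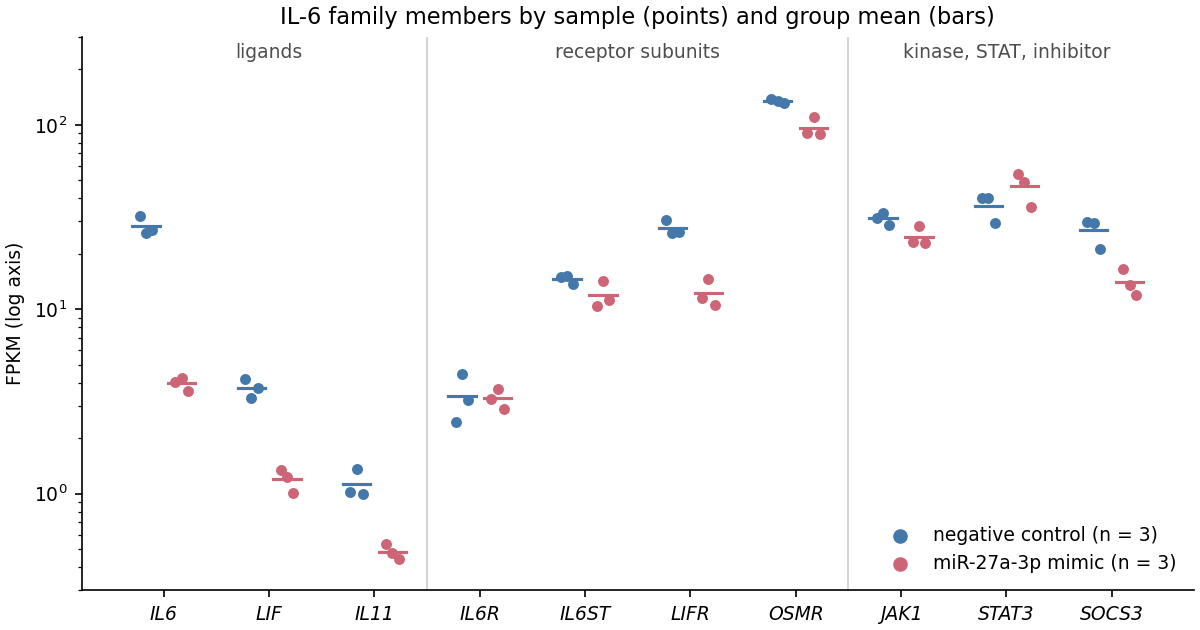
Expression of the 10 members in every sample, as FPKM on a log axis. Points are samples, short bars are group means of 3 samples, and vertical lines part ligands, receptor subunits and downstream genes. IL6, LIF and IL11 show the mimic samples wholly below the controls, while the groups overlap for IL6R, IL6ST and STAT3.

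IL6 encodes the founding cytokine of the family, a driver of the hepatic acute-phase response. The gene lies on chromosome 7 (22725884 to 22732002, plus strand, hg38). It stood at 32.1, 26.0 and 26.9 FPKM across controls 1 to 3 and 4.02, 4.26 and 3.62 across mimics 1 to 3. The lowest control was far above the highest mimic sample. The mean was 7.14-fold lower with the mimic (log2 fold change -2.69, SE 0.14, limma adjusted p = 1.39e-05), and -2.38 (SE 0.11) after scaling. IL6 ranked 95th from the most negative of the 14439 fold changes. An antisense gene that overlaps IL6 over 1737 bases, AC073072.1, averaged 0.317 FPKM in controls and 0.0827 in mimic samples, well under IL6 itself.

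LIF encodes leukemia inhibitory factor, known for keeping mouse stem cells undifferentiated and for acting on hepatocytes. The gene lies on chromosome 22 (30240447 to 30246851, minus strand). It was at 4.21, 3.29 and 3.75 FPKM across controls 1 to 3 and 1.35, 1.24 and 1.01 across mimics 1 to 3. These groups did not overlap either, and the log2 fold change was -1.32 (SE 0.16, limma adjusted p = 0.000327). It was -1.06 after median-of-ratios scaling and -0.68 after quantile normalization, where adjusted p was 0.0064.

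IL11, on chromosome 19 (55364389 to 55370463, minus strand), encodes a cytokine known for roles in platelet formation and fibrosis. It was at 1.02, 1.36 and 0.996 FPKM across controls 1 to 3 and 0.535, 0.475 and 0.442 across mimics 1 to 3. All mimic samples were below all controls, at levels close to the low end of what these tables hold. Fitted with no filter on low values, its log2 fold change was -0.72 (SE 0.14, limma adjusted p = 0.0112), a scale on which a change at such low levels is understated.

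The mimic's own sequence was set against these genes, since a microRNA pairs through its seed, bases 2 to 8, with sites in 3' untranslated regions (UTRs). The mature miR-27a-3p from RefSeq (GRCh38.p14, chromosome 19, minus strand) has the seed in capitals.
miR-27a-3p: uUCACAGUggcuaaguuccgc
With each gene's longest 3' UTR taken from GENCODE 29, 4 of the 10 members held a match to the seed (ACTGTGAA, an 8mer, ACTGTGA, a 7mer-m8, or CTGTGAA, a 7mer-A1), and 28.9% of the 3' UTRs of tested protein-coding genes did. LIFR held 3 matches, LIF, IL6R and IL6ST 2 each, and IL6, IL11, OSMR, SOCS3, STAT3 and JAK1 held 0. The matches of LIF, LIFR and IL6R are shown in capitals with flanking bases, since they contrast genes that fell with one whose groups overlap.
LIF 7mer-A1, chr22:30243625-30243631, minus strand: cttgaagtgtgCTGTGAAccgagggatct
LIF 7mer-m8, chr22:30242314-30242320, minus strand: ccccatcccctACTGTGActtgctttagg
LIFR 7mer-A1, chr5:38481499-38481505, minus strand: ttggagggatcCTGTGAAgtattgttagg
LIFR 7mer-m8, chr5:38479492-38479498, minus strand: tatgcatttcaACTGTGAccatctggatc
LIFR 8mer, chr5:38475664-38475671, minus strand: aaaatacacatACTGTGAAcagatataagt
IL6R 8mer, chr1:154465626-154465633, plus strand: gaacttgggccACTGTGAAgagaaccatat
IL6R 7mer-A1, chr1:154469030-154469036, plus strand: tcctcagtgccCTGTGAAggcctcctgtc
LIF and LIFR hold matches and were lower, IL6R holds an 8mer and had a log2 fold change of -0.01, and IL6, with the largest fold change of the members, holds no match in its 429-base UTR. The 3' UTR of LIFR has 6632 bases, and 70.7% of the 498 UTRs within 20% of that length hold a match, as do 47.4% for LIF, 57.7% for IL6R and 10.4% for IL6. Of the IL6ST matches, both 7mer-A1, 1 lies in a coding exon of another transcript, because its longest UTR belongs to a spliced isoform. A match is a description of letters and not a measured site.

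The UTR of IL6 is short and dense in ATTTA, the core word of AU-rich elements that speed mRNA decay. It holds 6 copies, which 0.2% of the 944 UTRs of like length reach or pass. IL11 holds 9, which 5.4% of like UTRs reach or pass, and LIFR 29, which 6.6% reach or pass. LIF holds 7 and SOCS3 4, numbers reached or passed by 50.3% and 41.9% of like UTRs. The members that fell were thus not all rich in this word for their UTR length.

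Promoter windows from RefSeq (GRCh38.p14, 250 bases before to 50 after a start) were found for 9 of the 10 members, 14 windows in all. They were searched on both strands for the STAT word TTCNNNGAA, the AP-1 word TGANTCA, the CRE word TGACGTCA and an NF-kappaB word of GGG, any 3 bases and TTCC, with no overlap between words in these windows. Of all 35116 windows, 7.7%, 7.7%, 1.8% and 6.5% hold them in that order. The windows of IL6 and IL11 are shown, as ligands that were lower, with matches in capitals.
IL6, chr7:22726950-22727249, plus strand: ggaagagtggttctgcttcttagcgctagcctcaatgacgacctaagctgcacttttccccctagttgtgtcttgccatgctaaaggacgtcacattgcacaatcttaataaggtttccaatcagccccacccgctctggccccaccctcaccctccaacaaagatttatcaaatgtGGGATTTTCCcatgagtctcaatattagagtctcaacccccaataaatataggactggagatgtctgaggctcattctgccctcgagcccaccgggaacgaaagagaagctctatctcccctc
IL11, chr19:55370414-55370713, minus strand: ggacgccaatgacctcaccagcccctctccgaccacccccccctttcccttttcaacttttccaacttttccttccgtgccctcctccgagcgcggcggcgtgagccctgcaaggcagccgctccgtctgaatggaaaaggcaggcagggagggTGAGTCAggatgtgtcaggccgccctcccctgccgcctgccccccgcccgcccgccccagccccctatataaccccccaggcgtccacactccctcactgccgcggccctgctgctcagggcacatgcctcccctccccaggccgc
The IL6 window holds an NF-kappaB word that begins 73 bases before the start, and the IL11 window an AP-1 word 96 bases before it. An AP-1 word was also found in the windows of IL6R and OSMR, which lies past the start in both. A STAT word was found in 2 of the 3 LIFR windows and an NF-kappaB word in 1 of the 2 SOCS3 windows. No window of SOCS3, LIFR or IL6 reaches the gene start listed in the series, which for SOCS3 is 78360077. A word missing from these windows therefore says nothing of the bases at those starts. The windows of IL6ST, STAT3 and JAK1 held none of the 4 words. Genes with an AP-1 word included IL11, whose groups did not overlap, and IL6R, whose groups did.

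Among the receptor subunits, LIFR fell, the signal-transducing IL6ST and the IL-6 binding IL6R were not called, and whether OSMR was called depended on the scaling. LIFR, the LIF receptor subunit, lies on chromosome 5 (38474963 to 38608354, minus strand). It was at 30.4, 25.9 and 26.2 FPKM across controls 1 to 3 and 11.4, 14.5 and 10.6 across mimics 1 to 3. Every mimic sample was below every control, and the mean with the mimic was 44.3% of the control mean. The log2 fold change was -1.15 (SE 0.16, limma adjusted p = 0.000539) and -0.84 after scaling. It was -0.48 after correction for GC content and length (adjusted p = 0.00741). LIFR is an AT-rich gene of 11864 exonic bases, with 36.2% GC in its longest transcript. The overlapping antisense gene LIFR-AS1 moved from 2.16 to 0.762 FPKM, and whether strand was used in counting is not stated, so their reads may be shared.

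OSMR, the oncostatin M receptor subunit on chromosome 5 (38845858 to 38945596, plus strand), had the highest level of all members in both groups. It stood at 137.9, 133.8 and 130.7 FPKM across controls 1 to 3 and 89.7, 110.1 and 89.5 across mimics 1 to 3. The groups did not overlap, with a log2 fold change of -0.48 (SE 0.14, limma adjusted p = 0.0197). It was -0.55 after quantile normalization (adjusted p = 0.0122). The call was lost after median-of-ratios scaling (-0.16, adjusted p = 0.278) and after GC and length correction (-0.12, adjusted p = 0.341). Leaving out control 1 (adjusted p = 0.0746), control 2 (0.0614) or mimic 3 (0.0513) also ended it, as did leaving out both samples numbered 3 (0.0778). The gene overlaps RICTOR on the other strand over 7678 bases, and RICTOR went from a mean of 25.9 to 8.43 FPKM.

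IL6ST, the gp130 gene on chromosome 5 (55935095 to 55994993, minus strand), was at 14.9, 15.1 and 13.7 FPKM across controls 1 to 3 and 10.4, 14.2 and 11.3 across mimics 1 to 3. Mimic sample 2 lay within the control range. The log2 fold change was -0.29 with a 95% interval from -0.63 to 0.06 (limma adjusted p = 0.142). It was 0.03 after scaling and 0.34 after GC and length correction, where it was called higher (adjusted p = 0.0276), and it was called lower without mimic sample 2 (-0.41, adjusted p = 0.0475). The direction of IL6ST therefore depended on the setting.

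IL6R, the alpha receptor for IL-6 on chromosome 1 (154405193 to 154469450, plus strand), was low in both groups. It was at 2.46, 4.47 and 3.205 FPKM across controls 1 to 3 and 3.27, 3.71 and 2.89 across mimics 1 to 3, so the mimic range lay inside the control range. The 95% interval of its log2 fold change, -0.48 to 0.47, leaves room for a change of either sign (limma adjusted p = 0.983). After scaling the value was 0.27 with an interval from -0.19 to 0.74.

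Downstream of the receptors, the inhibitor gene fell while the gene of the transcription factor that induces it did not. SOCS3, on chromosome 17 (78356778 to 78360077, minus strand), was at 29.7, 29.4 and 21.2 FPKM across controls 1 to 3 and 16.6, 13.6 and 12.0 across mimics 1 to 3. Sample 3 was the lowest of each group, and the groups did not overlap. The log2 fold change was -0.90 (SE 0.18, limma adjusted p = 0.00386), and -0.59 after scaling (adjusted p = 0.0114).

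STAT3, on chromosome 17 (42313324 to 42388568, minus strand), was at 40.1, 40.0 and 29.2 FPKM across controls 1 to 3 and 54.2, 49.0 and 36.0 across mimics 1 to 3. Here too sample 3 was the lowest of each group, and mimic sample 3 lay below controls 1 and 2. The deposited scale gave a log2 fold change of 0.34 (SE 0.20, limma adjusted p = 0.180). STAT3 was called higher after median-of-ratios scaling (0.66, SE 0.15, adjusted p = 0.00814), where the groups did not overlap, and after GC and length correction (0.63, adjusted p = 0.0125).

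JAK1, a receptor-bound tyrosine kinase gene on chromosome 1 (64833229 to 64966504, minus strand), was at 31.3, 33.4 and 28.8 FPKM across controls 1 to 3 and 23.2, 28.1 and 22.8 across mimics 1 to 3. The groups did not overlap, yet the log2 fold change of -0.33 (SE 0.14) missed the threshold (limma adjusted p = 0.0738). It passed without mimic sample 2 (-0.43, adjusted p = 0.0474). After scaling it was -0.01 with a 95% interval from -0.28 to 0.25.

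**Figure D2:**
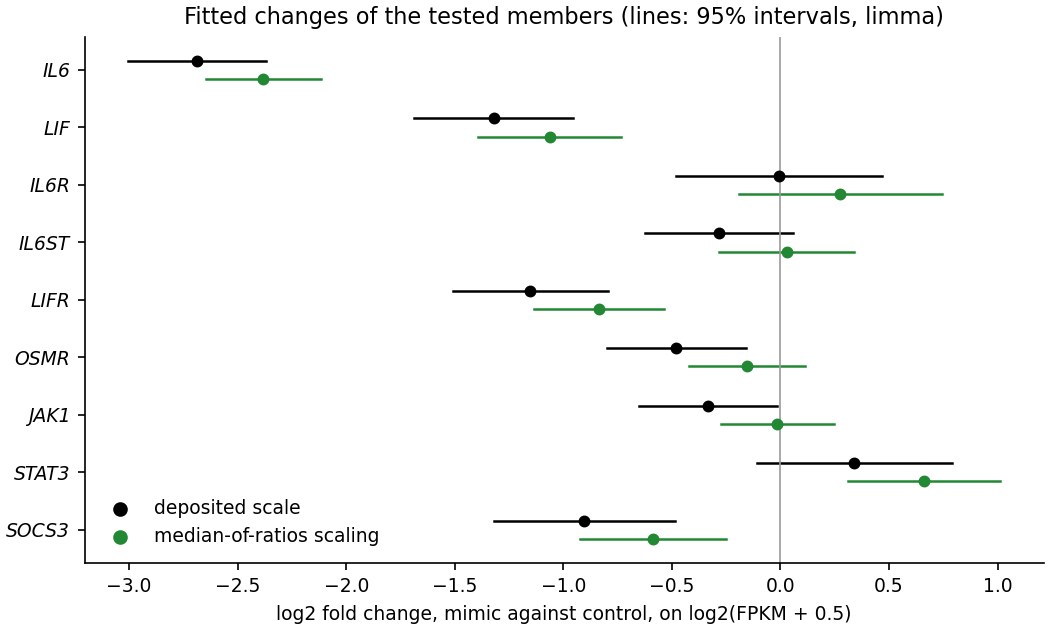
Log2 fold change of the 9 tested members, mimic against control, as deposited (black) and with median-of-ratios scaling (green), with 95% intervals from limma. IL6, LIF, LIFR and SOCS3 lie below 0 on both scales, and the scaling moves STAT3 from 0.34 to 0.66 and OSMR from -0.48 to -0.16.

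Ratios of members within a sample do not depend on a single scaling factor per library, and show where members changed unequally. Corrections that act gene by gene can still change them. After GC and length correction the log2 fold changes of OSMR and LIFR were -0.12 and -0.48, against -0.48 and -1.15 as deposited. The ratios were picked with the members' values known and are given without a test. SOCS3 per STAT3 was 0.740, 0.735 and 0.726 across controls 1 to 3 and 0.306, 0.277 and 0.332 across mimics 1 to 3. This ratio varied little within a group and the groups lay far apart, although both genes were lowest in sample 3. STAT3 per JAK1 was 1.28, 1.195 and 1.02 across controls 1 to 3 and 2.33, 1.75 and 1.58 across mimics 1 to 3, so the transcription factor gene gained on the kinase gene. OSMR per LIFR was 4.53, 5.17 and 4.99 across controls 1 to 3 and 7.84, 7.58 and 8.46 across mimics 1 to 3. LIFR per IL6ST was 2.04, 1.72 and 1.91 across controls 1 to 3 and 1.097, 1.02 and 0.940 across mimics 1 to 3, so the transcripts of the LIF receptor subunit went from an excess over gp130 to near parity per length. IL6 per IL6R was 13.1, 5.81 and 8.39 across controls 1 to 3 and 1.23, 1.15 and 1.25 across mimics 1 to 3, the spread in controls coming with IL6R itself.

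**Figure D3:**
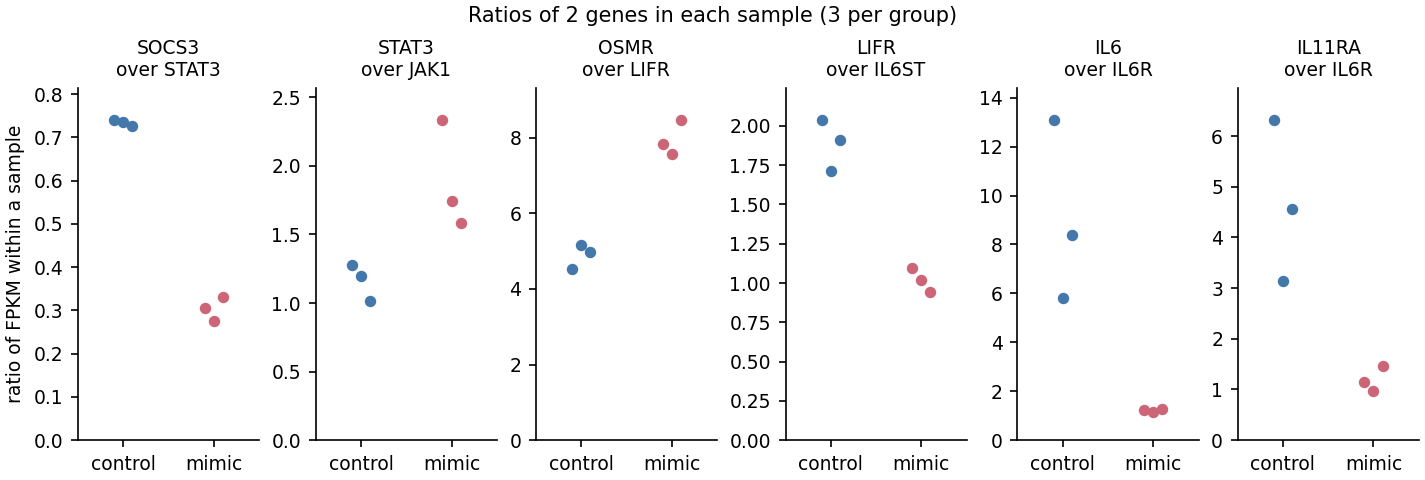
Ratio of FPKM of 2 genes within each sample, for 6 pairs, with 3 points per group and axes from 0. SOCS3 per STAT3 is at 0.726 to 0.740 in controls and 0.277 to 0.332 in mimic samples, and IL11RA per IL6R drops from 3.15 or more to 1.47 or less.

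The order of levels per length also shifted. In controls OSMR (134.1 FPKM) stood apart from the rest, and STAT3 (36.4), JAK1 (31.2), IL6 (28.3), LIFR (27.5) and SOCS3 (26.8) followed with each neighbouring pair overlapping in its samples. IL6ST (14.6) came next without overlap, then LIF (3.75) and IL6R (3.38), which overlapped, and IL11 (1.13). In mimic samples OSMR (96.5), STAT3 (46.4) and JAK1 (24.7) stood in the same order without overlap between neighbours. SOCS3 (14.0), LIFR (12.2) and IL6ST (12.0) then overlapped pairwise, and IL6 (3.97) had moved down to the level of IL6R (3.29), with LIF (1.2) and IL11 (0.484) last.

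The genes whose pattern over the 6 samples was most like a member's were found by the smallest root mean square distance of centred log2(FPKM + 0.5) among 8651 or 8652 protein-coding genes that averaged 5 FPKM or more. For IL6 they were KATNAL2 (distance 0.068), NR4A2 (0.10) and NKTR (0.107). NR4A2, an orphan nuclear receptor gene of the immediate early class, was at 41.5, 35.6 and 41.1 FPKM across controls 1 to 3 and 6.58, 6.72 and 5.59 across mimics 1 to 3. For LIF they were ENOSF1 (0.046), RDH13 (0.052) and CBR4 (0.069), and for SOCS3 PTK6 (0.061), APLP1 (0.063) and EMC7 (0.065). LIF itself averaged 2.47 FPKM, so the added 0.5 shrinks its changes more than those of genes at 5 FPKM or more. A small distance to LIF is thus not an equal fold change in FPKM. PTK6, a non-receptor tyrosine kinase gene, was at 19.4, 17.4 and 13.3 FPKM across controls 1 to 3 and 10.2, 9.05 and 7.80 across mimics 1 to 3, with sample 3 again the lowest of each group.

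The rest of the pathway was read from a list of 40 other ligand, receptor, kinase, STAT, adaptor, inhibitor and sheddase genes, of which 30 were tested. By limma 13 were lower and 2 higher (median -0.40 on the log2 scale). Median-of-ratios scaling gave 9 lower and 9 higher (median -0.09). These counts stand beside the 39.6% lower and 12.0% higher of all tested genes, and 27.4% and 26.9% after scaling. The 30 genes as a list thus moved with the scale, and the single genes below kept their call on both scales unless stated.

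Among other ligands 3 of 4 tested genes were lower and 0 higher, beside 39.6% and 12.0% of all tested genes. After scaling 2 were lower and 0 higher, beside 27.4% and 26.9%. At an unadjusted p under 0.05 the deposited scale gave the same 3 and 0. The share of all genes at that threshold was not taken, so these counts are not read against a background. CNTF, the ciliary neurotrophic factor gene, went from 2.42 ± 0.831 to 0.457 ± 0.254 FPKM (SD, n = 3; -1.61, SE 0.27), though it shares its locus with a readthrough transcript and its reads may not be its own. CLCF1, the cardiotrophin-like cytokine gene, fell on the deposited scale (-0.47, adjusted p = 0.0229) but not after scaling (-0.17, adjusted p = 0.240), and EBI3, a subunit of IL-27, had a value of -0.10 (adjusted p = 0.759). OSM, the ligand of OSMR, was at no more than 0.0318 FPKM in any sample.

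The 2 other receptor genes tested moved in opposite directions. IL11RA, the alpha receptor for IL-11, was at 15.5, 14.1 and 14.6 FPKM across controls 1 to 3 and 3.77, 3.60 and 4.26 across mimics 1 to 3. The groups lay well apart, with a log2 fold change of -1.80 (SE 0.13, limma adjusted p = 4.31e-05). IL27RA, the IL-27 receptor gene, rose from 7.80 ± 1.51 to 11.9 ± 2.07 FPKM (SD, n = 3; 0.59, SE 0.18, adjusted p = 0.0271). CNTFR and IL31RA stayed below 0.2 FPKM in all samples.

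Of 10 other kinase, STAT and adaptor genes tested, 3 were lower and 0 higher, beside 39.6% and 12.0% of all tested genes. At an unadjusted p under 0.05 the counts were the same, 3 and 0. The share of all genes at that threshold was not taken, so they are not read against a background. After scaling 2 were lower and 6 higher, beside 27.4% and 26.9%. STAT5B, a growth hormone and cytokine responsive STAT gene, fell from 42.5 ± 3.08 to 21.8 ± 4.23 FPKM (SD, n = 3; -0.96, SE 0.17, limma adjusted p = 0.00183). GAB1, an adaptor that links gp130 to further signalling, fell (-0.74, adjusted p = 0.00644), but its value was -0.13 after GC and length correction (adjusted p = 0.493) and -0.09 after quantile normalization (adjusted p = 0.678). JAK2 was near the threshold (-0.45, adjusted p = 0.048; -0.19, adjusted p = 0.316 after scaling; 0.20, adjusted p = 0.284 after quantile normalization), STAT2 was at -0.37 (adjusted p = 0.120), and SHC1 at 0.29 (adjusted p = 0.157) was called higher after scaling (0.61, adjusted p = 0.00593).

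Of 12 other inhibitor genes tested, 5 were lower and 1 higher, beside 39.6% and 12.0% of all tested genes, so on the deposited scale the list is near the background. After scaling 4 were lower and 2 higher, beside 27.4% and 26.9%. SOCS4, a SOCS family member best known for its action on the epidermal growth factor receptor, was at 12.2, 8.86 and 10.6 FPKM across controls 1 to 3 and 2.25, 2.86 and 2.004 across mimics 1 to 3. SOCS4 had a log2 fold change of -1.95 (SE 0.17, limma adjusted p = 9.27e-05), and its groups did not overlap. SOCS6 (-1.03, SE 0.22), PIAS2 (-0.96, SE 0.17) and PIAS1 (-0.92, SE 0.16) fell too, PIAS proteins being inhibitors of activated STATs, and none of these 3 was called after GC and length correction (-0.51, -0.30 and -0.36). PIAS4, named after its values were seen, was the 1 that rose (0.56, SE 0.12, adjusted p = 0.00551). PTPN2, a phosphatase gene with the highest mean over the 6 samples among these inhibitors, had overlapping groups (-0.55, adjusted p = 0.206). Of the proteases that shed IL-6 receptors, ADAM10 fell on the deposited scale only (-0.44, adjusted p = 0.0328; -0.13, adjusted p = 0.412 after scaling) and ADAM17 had a value of -0.29 (adjusted p = 0.108). After GC and length correction ADAM10 was at 0.23 (adjusted p = 0.250) and ADAM17 was called higher (0.33, adjusted p = 0.0209).

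**Figure D4:**
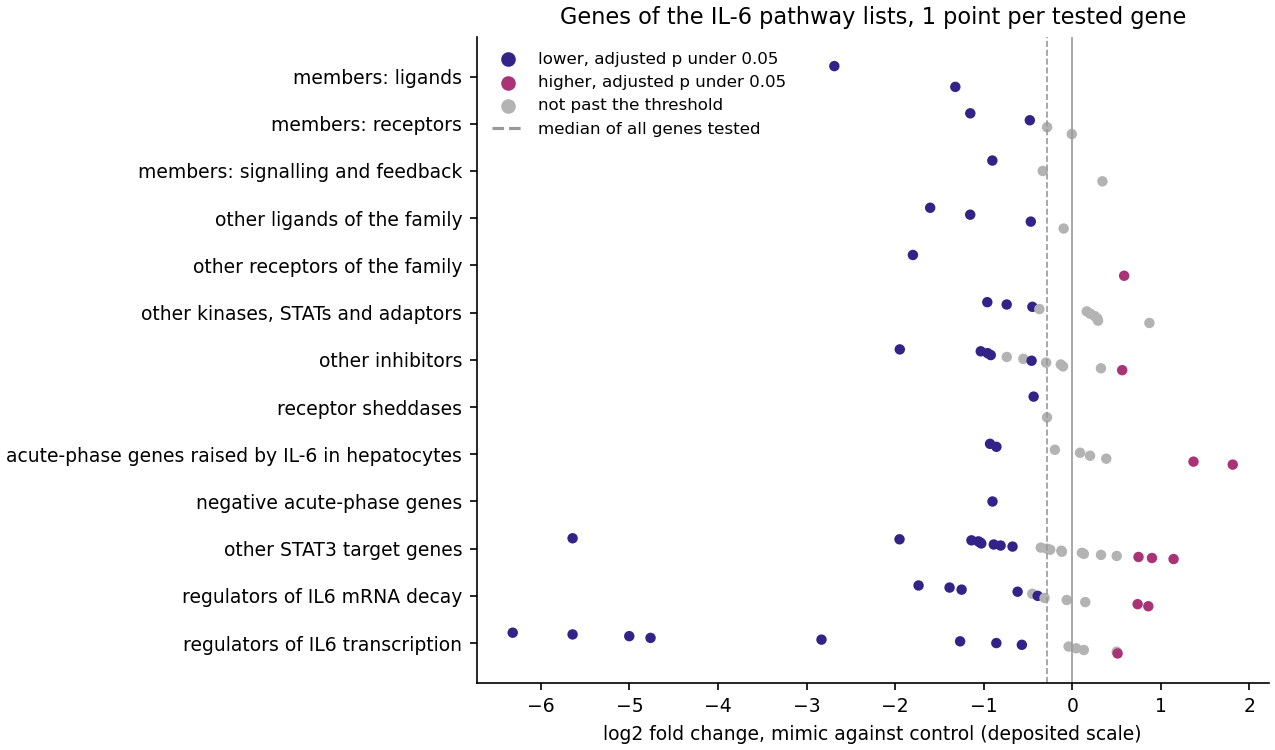
Log2 fold change of every tested gene of the IL-6 pathway lists on the deposited scale, 1 point per gene and list, coloured by call. FOS, CEBPB and CEBPD are in more than 1 list and have a point in each. The dashed line is the median of all tested genes (-0.29), and the genes farthest to the left are FOS, EGR1, NFKBIZ and ATF3.

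Acute-phase genes, the classic hepatic readout of IL-6, were mostly silent. Of 26 listed, 18 were below the filter and 16 stayed under 1 FPKM in every sample, CRP among them at 0 throughout, which stands beside the near absence of hepatocyte markers given above. Of the 8 tested, 2 were lower and 2 higher, against 39.6% and 12.0% of all tested genes, and 2 and 5 after scaling, against 27.4% and 26.9%. SAA2, C3 and SOD2, named after their values were seen, were called higher after scaling but not as deposited, and CP on neither scale. C3 averaged 129.4 FPKM in controls and 136.4 with the mimic, and SOD2 66.36 and 75.65. SAA1, which encodes serum amyloid A, was at 9.75, 7.94 and 2.91 FPKM across controls 1 to 3 and 30.8, 20.3 and 19.0 across mimics 1 to 3 (log2 fold change 1.81, SE 0.41, limma adjusted p = 0.00797), opposite in direction to IL6 and with a near-identical paralog. FTL, the ferritin light chain gene, rose (1.37, SE 0.16), while CFB, complement factor B, fell from 41.2 ± 9.01 to 22.2 ± 2.87 FPKM (SD, n = 3; -0.86, SE 0.19) and ITIH4, an inter-alpha-trypsin inhibitor gene, from 2.01 ± 0.257 to 0.819 ± 0.133 (-0.93, SE 0.16). The ITIH4 call was lost after quantile normalization (-0.16, adjusted p = 0.402). Of 9 genes listed as lowered in the acute phase, 8 were below the filter, the transferrin gene TF among them. The 1 tested was TFRC (-0.91, SE 0.33, limma adjusted p = 0.0486, and -0.59, adjusted p = 0.113 after scaling). TFRC encodes the transferrin receptor and not transferrin, so it is not read here as a negative acute-phase gene.

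Other STAT3 target genes included calls in both directions. All 21 were tested, 9 were lower and 3 higher, with a median of -0.29, and 9 were lower and 7 higher after scaling, with a median of 0.04. The shares over all tested genes were 39.6% and 12.0%, around a median of -0.29, and 27.4% and 26.9% after scaling, so on the deposited scale the list is near the background. FOS, an AP-1 subunit gene, went from 490.0 ± 51.25 to 9.53 ± 2.58 FPKM (SD, n = 3; log2 fold change -5.64, SE 0.21, limma adjusted p = 4.73e-06). VMP1, an autophagy gene whose transcripts run into the host region of a microRNA, fell by 1.95 on the log2 scale (SE 0.14), JUNB, another AP-1 subunit gene, by 1.14 (SE 0.13) and TIMP1, a metalloproteinase inhibitor gene, by 0.89 (SE 0.13). The 3 that rose were BIRC5, the survivin gene (1.14, SE 0.14), and, named after their values were seen, BCL2L1 (0.90, SE 0.13) and ICAM1 (0.75, SE 0.14).

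Genes known to act on the decay or the transcription of IL6 mRNA were read at the mRNA level. The decay and transcription of IL6 were not measured, and any effect of these genes on it was not tested. Of 11 decay regulators 5 were lower and 2 higher, against 39.6% and 12.0% of all tested genes, and 3 and 3 after scaling, against 27.4% and 26.9%. ZFP36, whose product binds ATTTA words and promotes decay, was at 18.3, 24.9 and 25.5 FPKM across controls 1 to 3 and 7.48, 6.35 and 5.63 across mimics 1 to 3 (log2 fold change -1.74, SE 0.17, limma adjusted p = 0.00015). ZC3H12A, the Regnase-1 gene whose product cleaves IL6 mRNA, fell from 34.1 ± 1.49 to 14.0 ± 0.861 FPKM (SD, n = 3; -1.25, SE 0.12). ELAVL1, which encodes the stabilising factor HuR, rose (0.74, SE 0.13), as did KHSRP, a decay-promoting factor gene, from 86.6 ± 3.57 to 158.3 ± 21.96 (0.86, SE 0.15).

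Of 13 transcription regulators of IL6, 8 were lower and 1 higher, against 39.6% and 12.0% of all tested genes, and 6 and 4 after scaling, against 27.4% and 26.9%. FOS, CEBPB and CEBPD are also among the other STAT3 target genes and count in both lists. EGR1 (-6.32, SE 0.17), FOS, NFKBIZ (-5.00, SE 0.20) and ATF3 (-4.76, SE 0.16), genes induced soon after stimulation, had the smallest p and larger fold changes than IL6 itself. NFKBIZ encodes IkappaB-zeta, a nuclear cofactor needed for IL6 induction in several cell types, and it was at 271.9, 187.4 and 231.6 FPKM across controls 1 to 3 and 6.24, 8.39 and 5.53 across mimics 1 to 3. NFKB1, named after its values were seen, was the 1 that rose (0.51, SE 0.15, adjusted p = 0.0206). CD68 rose (0.91, SE 0.22) in the leukocyte list, while CD14, below the filter and named after its values were seen, averaged 1.27 FPKM in controls and 0.404 with the mimic without overlap, and COL1A1 fell (-1.09, SE 0.15) in the stromal and endothelial list. Other genes of that list, below the filter and named after their values were seen, went both ways without overlap. PDGFRB averaged 0.52 FPKM in controls and 0.95 with the mimic, while COL3A1, PECAM1 and CDH5 were lower with the mimic. The part of RNA composition or of cell identity in these results was not tested.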

How the data were processed

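Gene expression was measured by RNA sequencing in 6 samples, 3 per group, and groups were taken from the treatment label. The authors deposited FPKM per gene and sample, per the file headers. FastQC, HISAT2 and hg38 are named by the submitters' processing notes, while the program that made the FPKM, its strand setting and its annotation are not given in the sources at hand. The 6 single-sample tables held the same values as the series table. FPKM times the exonic length in GENCODE 29 piled up at 1 value per sample, read as 1 fragment, but only 11.5% to 15.7% of low values were whole multiples of it within 1%, so counts were not recovered and no count test or counting interval is given.

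Genes that averaged 1 FPKM or more were tested with limma-trend (limma 3.58.1, R 4.3.3), robust empirical Bayes, on log2(FPKM + 0.5) with no covariate. The same fit was run on simulated data in which few genes changed and noise was independent between genes. These data differ from that setting, with a median shift of -0.29 over all tested genes, so the simulation gives no assurance for them. Fold changes on the log2(FPKM + 0.5) scale understate changes of low genes. Members and lists were chosen with earlier results of these data known. Named genes are the members, up to 4 genes with the smallest p and the highest gene of each list, and the 3 nearest patterns of IL6, LIF and SOCS3. Alternatives were pseudocounts 0.1 and 1, no filter and 5 FPKM, median-of-ratios and quantile scaling, mitochondrial genes left out of the total, GC and length correction by splines, non-robust moderation, the replicate number as a block, and samples left out. Of the other ligands, 1 that the rule names is counted in its list but not reported here.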

Additional observations from a re-analysis of the deposited data

How the results depend on the processing

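IL6, LIF, LIFR and SOCS3 stayed lower and called under every alternative run for them (18 each, 17 for LIF), with log2 fold changes from -2.80 to -2.27, -1.57 to -0.68, -1.28 to -0.48 and -1.06 to -0.59. OSMR was called in 11 of 18, STAT3 (0.19 to 0.66) in 4, IL6ST in 3 and JAK1 in 2. IL6R was never called and changed sign at 0.275 after median-of-ratios scaling, 0.56 after quantile normalization, 0.013 when the total excluded mitochondrial genes and 0.20 after GC and length correction, and ran from -0.185 to 0.189 with 1 sample left out and to 0.055 without sample 3 of both groups. IL6ST changed sign at 0.028 and 0.344 under scaling and GC correction (0.344 also with the block).

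Over all genes, 8755 were lower with no filter, 2916 at a mean of at least 5 FPKM, 3289 after quantile normalization, 3363 after GC and length correction and 3371 with the replicate block added. Higher genes numbered 3889 after median-of-ratios scaling, 3592 after quantile normalization, 3791 after GC and length correction and 3930 with the block added. Members called higher numbered 1 after median-of-ratios scaling and with the replicate block (STAT3) and 2 after GC and length correction, with or without the block (STAT3 and IL6ST). Of other pathway genes 8 were lower at 5 FPKM, 7 after quantile normalization and 6 after GC correction with or without the block, and 1 was higher with no filter, 9 after median-of-ratios scaling, 5 after quantile normalization or GC correction, 7 with the block added and 1 to 3 with samples left out. Acute-phase genes had 4 lower with no filter, 1 at 5 FPKM and 1 after quantile normalization, and as higher 5 under median-of-ratios scaling and 4 under GC correction with or without the block. Higher STAT3 targets numbered 7 after median-of-ratios scaling and 5 without mitochondrial genes, with the block and after GC correction with or without it. Same-numbered samples correlated in their deviations from group means at 0.177, -0.047 and 0.223, controls 1 and 3 correlated best with their own number and control 2 with mimic 1. As 1 of the 3 was not above 0.1, the samples were not treated as paired, and whether they share a source is not known. These correlations run over all tested genes and do not settle the matter for single genes. The SE of STAT3 was 0.196 without the block and 0.105 with it, that of SOCS3 0.182 and 0.118, and that of LIF 0.159 and 0.153. With the replicate block alone, 5994 genes were lower and 2117 higher, STAT3 (0.34, adjusted p = 0.034) and JAK1 (-0.33, adjusted p = 0.039) gained a call in limma and no other member changed its call. Fewer genes were tested at 5 FPKM and more with no filter; for the other changes the cause was not tested. Low levels limit IL11, LIF and IL6R most.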
